A study of Mus musculus with 6 samples.

Results

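The En1 locus was described here as a stretch of 650 kb of mouse chromosome 1, from 122,050,001 to 122,700,000 of the mm9 genome build, in Hi-C data of P19 cells. Its members were all deposited pairs of 5 kb bins with at least 1 bin centred in that stretch. They numbered 1888 of 3,654,010 pairs on the nuclear chromosomes, 845 with both bins inside and 1043 with 1 bin inside. The stretch was chosen because counts of some of its 50 kb windows fell between untreated cells and cells after 48 h of treatment, so all values of that comparison are given as a description, with no test. The rule places En1 near 122.50 Mb, and distances below are counted from that position, with negative values on its lower-coordinate side. Other genes were not placed on these coordinates, as the annotation used here is of another build.

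P19 is a mouse embryonal carcinoma line that turns towards neurons with retinoic acid, here grown in monolayer. In Hi-C, neighbouring DNA ends of fixed chromatin are ligated and the chimeric fragments sequenced, so that a read pair records a contact. The 6 libraries were 2 replicates each of untreated cells (T0) and of cells exposed to all-trans retinoic acid (ATRA) at 1e-06 M, harvested 6 h (T6) or 48 h (T48) later. Every group is the same line, and untreated cells at 6 h or 48 h were not analysed here, so ATRA and time in culture cannot be told apart. Whether the replicates came from different cultures is not in the labels. The p-values then cover only the spread of these samples and may reflect technical variation.

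En1 encodes engrailed-1, a homeobox transcription factor that patterns the midbrain and hindbrain border, the ventral limb ectoderm and classes of spinal interneurons. Regulatory sequences of such developmental genes often lie far from the promoter and are held with it in a contact domain, a stretch whose parts meet each other more than they meet the neighbouring DNA. A domain border is seen in Hi-C as a position that few contacts span, and an anchor with many contacts appears as a stripe. In the RefSeq order of genes on GRCm38.p6, the protein-coding genes nearest to En1 are Marco, a scavenger receptor, and C1ql2, a C1q-like secreted protein, on the lower-coordinate side. On the other side the nearest is Insig2, a regulator of sterol synthesis, beyond several long non-coding RNA genes.

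The En1 promoter is shown because distances of all contacts below are counted from the position given for this gene. RefSeq gives these 300 bases on the plus strand of GRCm38.p6, 250 before and 50 after the start, at chr1:120602237-120602536, a build whose coordinates cannot be compared with those of the contacts. Capitals mark the E-box CACGTG, which reads the same on both strands.
En1 promoter: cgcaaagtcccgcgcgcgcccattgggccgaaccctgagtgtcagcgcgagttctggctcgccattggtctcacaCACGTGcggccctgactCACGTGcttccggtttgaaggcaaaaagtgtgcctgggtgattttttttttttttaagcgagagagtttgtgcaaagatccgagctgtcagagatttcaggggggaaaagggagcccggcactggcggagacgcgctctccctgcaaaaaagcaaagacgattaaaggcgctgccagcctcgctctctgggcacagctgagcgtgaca
The E-box occurred 2 times, and 7.15% of 32,851 RefSeq promoters of that length hold at least 1. The retinoic acid receptor half-site AGGTCA and AGGGGGC, a part of the CTCF motif, were searched on both strands and had 0 matches, against 16.3% and 10.6% of promoters. These matches describe letters in the window and show no binding.

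The submitters describe the deposited table as significant interactions found in both replicates of a time point. A count of 0 there means not listed, and not an absence of contact. The lowest count listed was 3. The sum of listed counts over the genome lay between 23,003,295 and 50,154,643 per library and was higher in replicate 1 of each time point. Reads outside the listed pairs are not in these sums, so the sequencing depth is unknown. PCR copies among the reads were not marked by molecular identifiers. Intervals below are for shares of listed pairs and cover only the counting error of pairs. They treat pairs as independent, which pairs that share a bin are not, and do not measure the spread between replicates.

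The locus lost listed pairs between 6 h and 48 h. The untreated list held 1194 of its pairs, the 6 h list 1030 and the 48 h list 721, a change of -13.7% after 6 h and -39.6% after 48 h. Over the genome the same changes were -15.4% and -4.48%, and over chromosome 1 they were -15.6% and -14.04%. Each list has no replicate error. Flanks of the same length also had fewer pairs at T48, with -30.3% on the lower-coordinate side and -29.7% on the other. A pair that joins a flank to the locus is counted in both.

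The strongest falls of single bins in number of listed pairs lay in 4 bins of 5 kb, and the bins at the En1 position were not among them. The 5 bins with most listed pairs over the 3 lists stood at -337.5, -7.5, 37.5, 42.5 and 197.5 kb. In the order T0, T6 and T48, the bin at 197.5 kb had 97, 90 and 13 listed pairs. The bin at 37.5 kb had 84, 81 and 14, and its neighbour at 42.5 kb had 88, 69 and 18. The bin at -337.5 kb had 60, 56 and 5. By this number they stood at the 99.9th percentile or above of all listed bins of the genome before treatment. After 48 h they stood at the 17.4th (-337.5 kb), 78.8th (37.5 kb), 91.1st (42.5 kb) and 73.9th (197.5 kb). At T0 and T6 these bins drew stripes through the contact map, which were sparse or missing at T48.

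The bins next to the En1 position fell less in number of pairs, or not at all, while their partners changed. In the same order the bin at -7.5 kb had 37, 22 and 31. The bin at -2.5 kb had 21, 16 and 19, and the bin at 2.5 kb had 15, 11 and 16. Partners inside the locus went from 11 at T0 to 3 at T48 for the bin at -7.5 kb, from 5 to 3 for that at -2.5 kb and from 7 to 3 for that at 2.5 kb. The median distance of the partners of the bin at 2.5 kb was 350 kb at T0, 40 kb at T6 and 560 kb at T48, each over few partners. At -2.5 kb it was 525, 572.5 and 575 kb, and at -7.5 kb it was 495, 480 and 570 kb. The median over all 130 bins of the locus, of which 100 had a listed pair, was 12, 10 and 8. Over the 376,858 bins of the genome with a listed pair it was 9, 8 and 9. The locus median includes bins without any listed pair and the genome median does not, so these medians cannot be compared directly. Of the 34 bins of the locus with at least 20 listed pairs at T0, 4 kept at most 25% of that number at T48, where 0.774% of such bins of the genome did. The locus was chosen on this comparison, so that share is given as background alone. At T6, 0 of the 34 had fallen that far, against 0.837% of such bins.

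**Figure D1:**
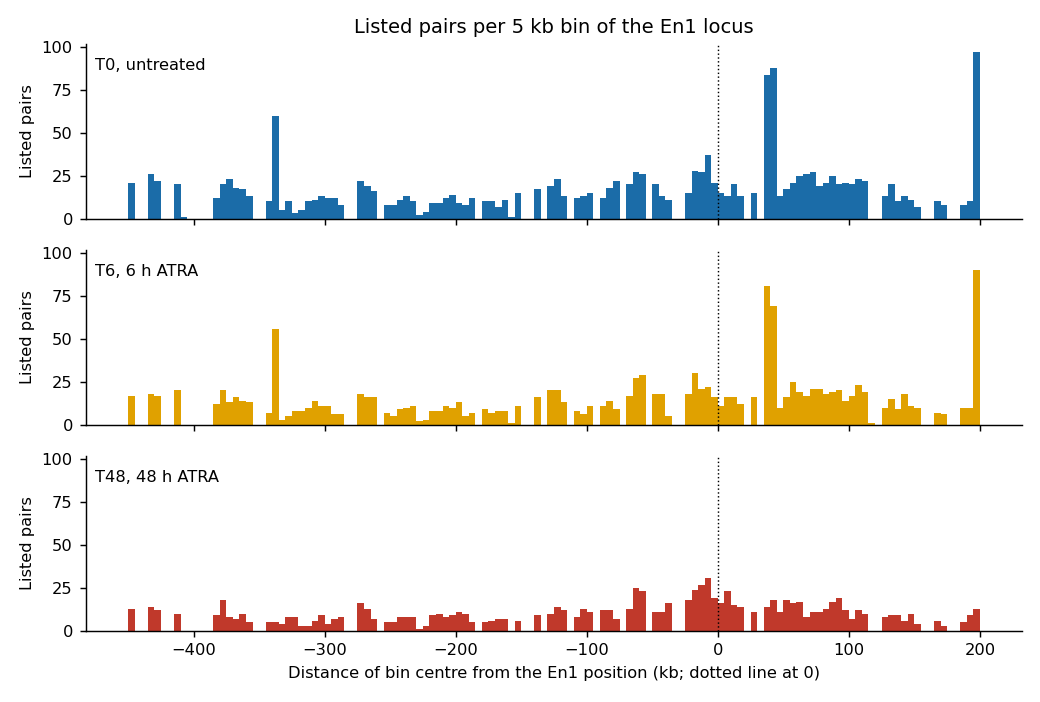
Number of listed pairs (y axis) of each 5 kb bin of the locus, by distance of its centre from the En1 position in kb (x axis), in the T0, T6 and T48 lists. The 4 tall bars at -337.5, 37.5, 42.5 and 197.5 kb have 60 to 97 pairs at T0 and 5 to 18 at T48.

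The bin at 197.5 kb is the last inside the locus, and the first outside on that side had 0 listed pairs at all time points. On the lower-coordinate side the first bin inside had 21, 17 and 13 listed pairs, and the last outside had 19, 10 and 12.

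Pairs of the 4 bins and all other pairs of the locus were then set apart, a split made after the values were seen. The 4 bins were picked, among the bins with most listed pairs, for their fall in listed pairs at T48. Their low share listed again at T48 therefore largely follows from that pick and is given as a description. The 4 bins took part in 324 untreated pairs, 293 pairs of the 6 h list and 49 of the 48 h list. Of those at T0, 67.9% were listed again at T6 (95% Wilson interval 62.6 to 72.7%) and 13.6% at T48 (10.3 to 17.7%). The intervals treat these pairs as independent, although they share 4 bins. The rest of the locus had 870, 737 and 672 pairs. There 43.6% of T0 pairs were listed again at T6 (40.3 to 46.9%) and 38.7% at T48 (35.6 to 42.02%), against 40.2% and 40.9% over the genome. Without the 4 bins the list changed by -22.8% between T0 and T48. The flanks changed by -30.3% and -29.7%, with no bin left out. They hold the pairs that join them to the 4 bins. At T0, 29 of the 84 partners of the bin at 37.5 kb lay inside the locus, 27 of 88 at 42.5 kb and 30 of 97 at 197.5 kb. The flanks are therefore not a separate background for the rest of the locus.

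The number of listed pairs fell in every distance class, by the largest shares between 20 and 500 kb. Under 20 kb the locus had 152, 136 and 130 pairs in the T0, T6 and T48 lists, a change of -14.5% over 48 h, against 1.19% over the genome. Between 20 and 100 kb it had 224, 200 and 89, a change of -60.3%, against -17.7%. Between 100 and 500 kb it had 565, 468 and 282, a change of -50.1%, against -7.87%. From 500 kb on it had 253, 226 and 220, a change of -13.04%, while the genome gained 25.4%. Without the 4 bins these 4 changes were -12.5%, -42.6%, -34.7% and 12.2%, so pairs of middle distance were fewer at T48 in the rest of the locus as well.

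The bins of the stripes reached mostly to the higher-coordinate side. At T0 the bin at 37.5 kb had 72 of its 84 partners on that side, with a median distance of 382.5 kb over all its partners. The bin at 42.5 kb had 74 of 88 there, with a median of 410 kb. The 14 and 18 partners left at T48 had medians of 515 and 495 kb, and 8 and 9 of them lay 500 kb away or more. The bin at -337.5 kb had 49 of its 60 partners inside the locus at T0, and its 5 partners at T48 lay within 25 kb. The bin at 197.5 kb had partners at a median of 180 kb at T0 and of 55 kb at T48. The bin at -7.5 kb, near but not at the En1 position, had 18 partners from 500 kb on at T0, 10 at T6 and 21 at T48.

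Values per library come from pairs present in all 3 lists, 268 in the locus. Their sum is given here as pair CPM, the count per 1,000,000 counts of all such pairs of the genome. Untreated libraries had a pair CPM of 333 and 339.7, those of 6 h 330.5 and 332, and those of 48 h 277 and 293. Both T48 values lay below the 4 others. The log2 T48 over T0 ratio was -0.24, with -0.26 within replicate 1 and -0.21 within replicate 2. The ratio at 6 h was -0.02 (two-sided exact permutation p = 0.333, the smallest that 2 libraries against 2 can give), and 0.03 when all listed pairs were summed.

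Without the 4 bins the summed counts of pairs in all 3 lists stayed level. The remaining 228 pairs had a pair CPM of 245 ± 3.30 before treatment, 243 ± 1.28 at 6 h and 244 ± 0.119 at 48 h (SD, n = 2). The log2 T48 over T0 ratio was then -0.0044. Leaving out bins picked for their fall favours a higher ratio, so the level of the rest is a description. With pairs that entered or left the lists included and counted as 0 where not listed, the ratio without the 4 bins was -0.27. In the flanks, which keep their pairs with the 4 bins, it was -0.28 and -0.26. The 40 pairs of the 4 bins went from 91.4 ± 1.78 at T0 and 87.9 ± 0.517 at T6 to 41.08 ± 11.8 at T48. On the pairs of all 3 lists the flanks had log2 ratios of -0.06 on the lower-coordinate side and 0.01 on the other.

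The counts of the 4 bins were high before they fell. CPM alone is edgeR's count per 1,000,000 counts summed over all bins, or over all windows for a window. The bin at 37.5 kb had a CPM of 13.1 and 14.0 in untreated cells, of 12.7 and 12.9 after 6 h and of 3.49 and 3.67 after 48 h. The bin at 42.5 kb went from 13.2 and 13.6 through 12.4 and 12.5 to 4.12 and 4.09. The bin at -337.5 kb went from 13.2 and 13.4 through 12.4 and 12.6 to 4.84 and 4.74. In these 3 bins both T48 libraries lay far below the other 4, and the T48 mean was 26.5%, 30.6% and 36.1% of that at T0.

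The bin at 197.5 kb behaved differently between the T48 replicates. Its CPM was 12.8 and 13.4 before treatment and 13.6 and 13.03 after 6 h. After 48 h it was 5.01 in replicate 1 but 13.6 in replicate 2. The second T48 library thus overlapped the untreated ones, with log2 ratios of -1.36 and 0.02 within replicates 1 and 2. Listing requires both replicates, so the fall of this bin from 97 to 13 listed pairs comes with T48 libraries that disagreed. Its pair of 5 kb with the bin at 192.5 kb counted 219 and 122 reads untreated, 181 and 125 after 6 h, and 76 and 169 after 48 h.

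Against the genome, the 4 bins changed from extreme to common levels in the 3 where the replicates agreed. At T0 all 4 stood at the 99.7th percentile of CPM over 310,746 fitted bins, whose median was 2.81. At T48 the bins at 37.5, 42.5 and -337.5 kb stood at the 65.4th, 74.6th and 83.8th percentile, with a genome median of 2.84. The median over the fitted bins of the locus was 2.95 at T0 and 2.71 at T48.

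**Figure D2:**
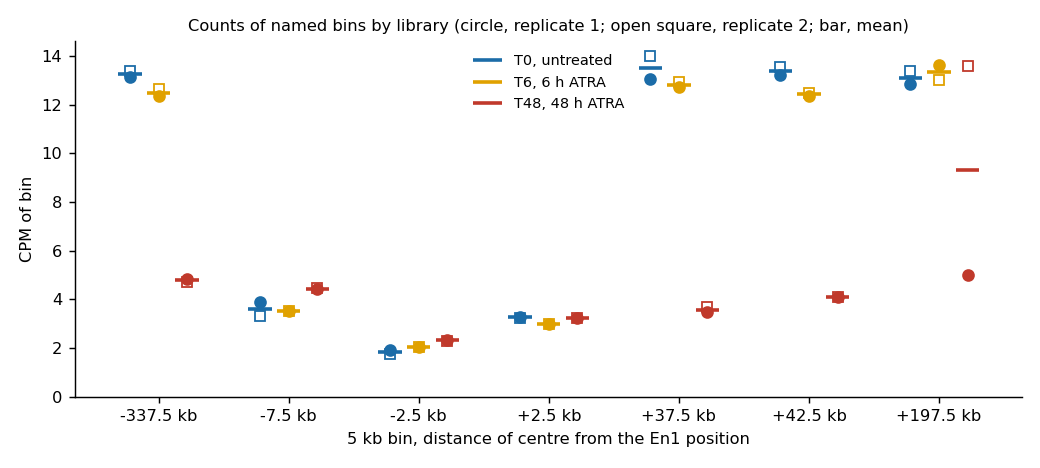
CPM (y axis) of the 5 bins with most listed pairs and the 2 bins at the En1 position, by library, with circles for replicate 1, open squares for replicate 2 and bars for the mean of 2. The bins at -337.5, 37.5 and 42.5 kb fall from above 12 to under 5 at T48, the T48 replicates at 197.5 kb lie apart, and the bins at -7.5, -2.5 and 2.5 kb stay under 5 throughout.

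Bins beside the En1 position had far lower counts. The bin at -7.5 kb stood at the 66.1st, 64.7th and 79.7th percentile at T0, T6 and T48, that at -2.5 kb at the 27.2nd, 31.1st and 37.02nd, and that at 2.5 kb at the 59.6th, 53.6th and 58.6th. The bin at -2.5 kb went from a CPM of 1.91 and 1.76 through 2.04 and 2.03 to 2.32 and 2.31. The bin at 2.5 kb had 3.29 and 3.25, then 2.99 and 2.99, then 3.26 and 3.23. The bin at -7.5 kb went from 3.89 and 3.31 through 3.54 and 3.53 to 4.43 and 4.47. In the bins at -2.5 and -7.5 kb both T48 libraries lay above both T0 libraries, and in the bin at 2.5 kb they overlapped. The T48 means were 126%, 123.6% and 99.2% of those at T0 at -2.5, -7.5 and 2.5 kb. Among the named bins, those at -337.5, 37.5 and 42.5 kb therefore had lower counts in both T48 replicates, and the bin at 197.5 kb in 1. In the bins that meet at the En1 position the T48 libraries did not both lie below the T0 libraries. Some bins not named here also had lower counts in both replicates, such as that at 27.5 kb (log2 ratios of -0.76 and -0.75). Whether contact itself was lost was not tested.

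Of 93 fitted bins of the locus, 6 had a log2 ratio of T48 over T0 at or below -1, against 0.200% of fitted bins of the genome. They were the bins at -337.5, 37.5 and 42.5 kb, and those at -342.5, -332.5 and -322.5 kb, which lie beside the first. The latter 3 have 1 or 2 pairs listed at all 3 time points, and 1 of them in each case joins the bin at -337.5 kb. Their fitted ratios therefore share counts with that bin.

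The bins at 37.5 and 42.5 kb fell in count with near and far partners in both replicates. The bin at -337.5 kb did so with near partners, and the bin at 197.5 kb fell in replicate 1. The bins at -337.5, 37.5 and 42.5 kb had 29 pairs in all 3 lists. Relative to all pairs of the genome in all 3 lists, 29 were lower at T48 within replicate 1 and 27 within replicate 2. The log2 T48 over T0 ratios of their sum were -1.52 and -1.57. Relative to pairs of the same distance, they were -1.65 and -1.69 under 20 kb and -1.18 and -1.62 at 20 to 100 kb in replicates 1 and 2. They were -0.66 and -0.84 at 100 to 500 kb, and -1.32 and -0.88 from 500 kb. From 500 kb the T0 and T48 libraries overlapped on this scale, with T48 replicate 1 above T0 replicate 2. The bin at 197.5 kb had 11 such pairs, of which 11 were lower within replicate 1 and 7 within replicate 2, and its sum had ratios of -1.33 and 0.03. edgeR kept 153 single pairs of the locus after its filter on low counts, 31 of them among the 40 of the 4 bins in all 3 lists, and these 31 had a negative log2 ratio of T48 over T0 in the fit, which averages the replicates. The median of these 31 was -1.16, with -1.22 under 20 kb (11 pairs), -1.05 at 20 to 100 kb (8), -0.71 at 100 to 500 kb (4) and -1.19 from 500 kb (8). The other 122 pairs had a median of -0.0036, with 62 below 0. Over 496,203 pairs of the genome the median was 0.0010, with 247,391 below 0. The 4 bins were picked for their fall, so the numbers of their pairs that fell are a description.

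The strongest single pair of the locus joined 2 of these bins. The bins at 37.5 and 42.5 kb, centred on 122,537,500 and 122,542,500, counted 423 and 250 reads in untreated cells, 372 and 192 after 6 h and 71 and 44 after 48 h. Relative to the median count listed at 5 kb in the same library, these are 5.22 and 5.68 times, then 4.96 and 5.05 times, then 0.973 and 0.978 times. The pair thus reached the typical count of neighbouring bins at T48, with a log2 T48 over T0 ratio of -2.45. The neighbouring pairs at -337.5 kb followed the same course. The pair with the bin at -342.5 kb had, in the same order, 221 and 136, 191 and 110, and 68 and 50, and that with the bin at -332.5 kb had 244 and 142, 217 and 113, and 83 and 48.

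The pairs of at least 20 kb with the lowest ratios, picked for their fall and given as a description, all had 1 of these bins. The pair of 25 kb between the bins at -362.5 and -337.5 kb went from 66 and 39 reads through 43 and 23 to 20 and 12 (log2 T48 over T0 -1.60). The pair of 25 kb between the bins at 12.5 and 37.5 kb went from 56 and 44 through 56 and 30 to 19 and 12 (-1.59). The pair of 30 kb between 7.5 and 37.5 kb went from 44 and 35 through 42 and 22 to 16 and 11 (-1.44). In each of these 3 pairs both T48 counts were the lowest of their replicate number. Among the strongest untreated pairs of at least 20 kb, the pair of 325 kb between the bins at 197.5 and 522.5 kb had 21 and 14, then 16 and 8, then 8 and 15 reads (-0.48), so the T48 replicates differed in direction here too.

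Neighbouring bins at the En1 position gave a contrast. The pair of bins at 2.5 and 7.5 kb counted 124 and 68 untreated reads, 108 and 57 after 6 h, and 103 and 70 after 48 h, with a log2 ratio of T48 over T0 of -0.03. The pair at -7.5 and -2.5 kb had 61 and 32, 59 and 25, and 49 and 40, with a ratio of 0.07.

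**Figure D3:**
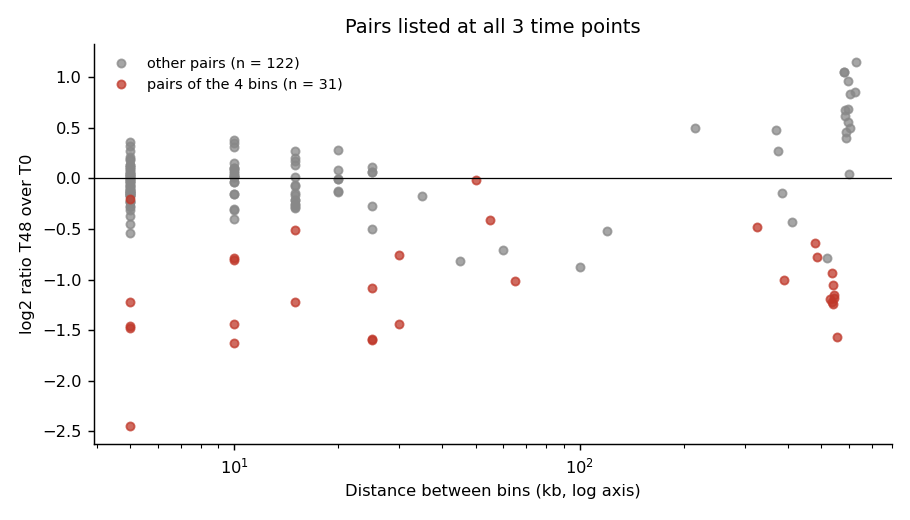
Log2 ratio of T48 over T0 (y axis) of the 153 fitted pairs of the locus against the distance between bins in kb on a log axis (x axis). The 31 pairs of the 4 bins lie below 0 at every distance; the 15 other pairs from 500 kb are those of 62 that passed the filter on low counts.

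A position spanned by few listed pairs lay just before En1 at all 3 time points. The number of listed pairs of 20 to 500 kb that span a bin edge was lowest between -35 and -25 kb at T0 and T48, with 6 and 2 pairs, and at -40 kb at T6, with 5. The median over the edges of the locus was 172 at T0, 134 at T6 and 79 at T48. At the En1 position itself it was 53, 35 and 21, and at -100 kb it was 130, 107 and 86. The locus thus fell into a part before about -35 kb and a part that held En1 and reached beyond 197.5 kb. The bin at -337.5 kb lay in the first and the other 3 of the 4 bins in the second.

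**Figure D4:**
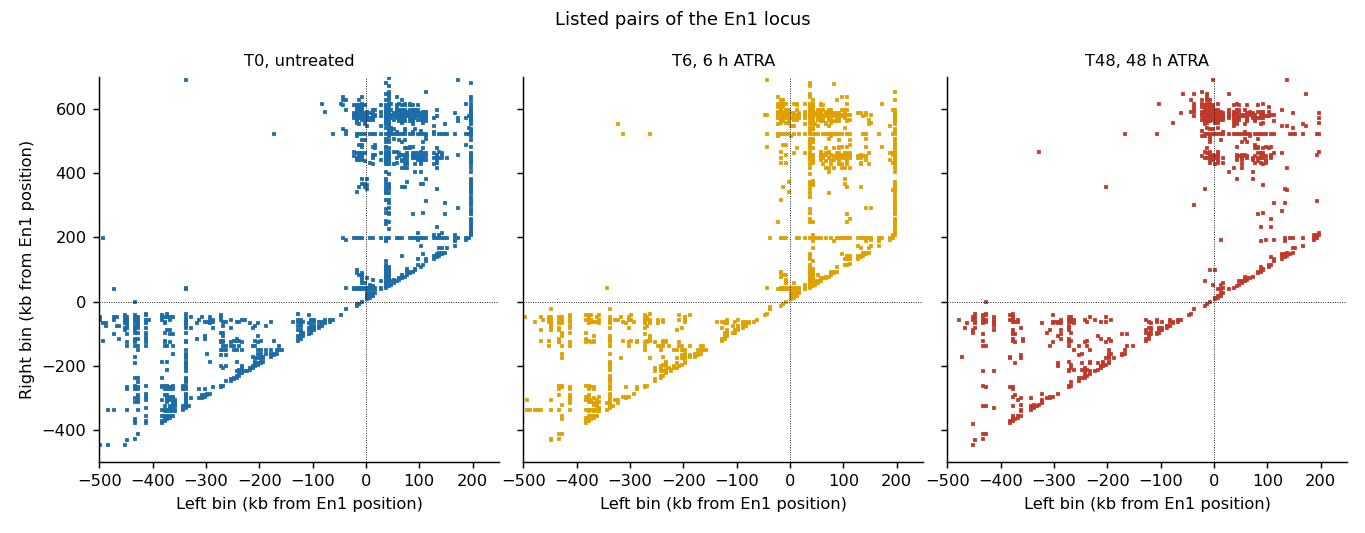
Listed pairs of the locus as points in the T0, T6 and T48 lists, with the left bin (x axis) and the right bin (y axis) as distances in kb from the En1 position; 1109, 952 and 668 pairs lie in the drawn range. Vertical stripes at -337.5, 37.5, 42.5 and 197.5 kb are seen at T0 and T6, and a cluster of right bins near 450 to 600 kb is seen in all panels.

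The En1 side of the locus had its most frequent outside partner in the window from 550 to 600 kb, at 123,050,001 to 123,100,000. With the 4 bins left out, 145 untreated pairs joined the locus to it, 132 pairs of the 6 h list and 126 of the 48 h list. In all 3 lists were 56, with 459 and 270 reads before treatment, 434 and 264 after 6 h, and 521 and 349 after 48 h. As pair CPM they came to 16.03 ± 0.290, 17.6 ± 1.44 and 20.7 ± 0.0620 (SD, n = 2). The T48 mean lay further from that of T0 than the spread between replicates.

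Higher values at T48 were seen for bins just before the En1 position. Contacts of the window from -50 to 0 kb with the 3 partner windows between 450 and 600 kb had a pair CPM of 9.76 and 8.72 untreated, 9.50 and 10.2 after 6 h, and 14.1 and 13.6 after 48 h (28 pairs). Both T48 libraries lay above the other 4. The log2 T48 over T0 ratio was 0.58, with 0.53 within replicate 1 and 0.65 within replicate 2. Contacts of the window from 0 to 50 kb, the 4 bins left out, had 2.79 and 3.61, then 2.44 and 3.31, then 3.58 and 3.602 (13 pairs), so the values overlapped. Contacts of the bins at 37.5 and 42.5 kb with the same partners had 7.10 and 6.80, then 6.79 and 7.96, then 3.42 and 3.48 (15 pairs), with both T48 values the lowest. Within 50 kb of En1, contacts with the same distant stretch therefore had log2 ratios of opposite sign, 0.49 without and -1.01 with the 4 bins. The difference was not tested, since both come from the comparison by which the locus was chosen.

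Single pairs at this distance had few reads and are given as a description. The pair of 585 kb between the bins at -7.5 and 577.5 kb was the strongest of the locus from 20 kb on in untreated cells, among pairs of all 3 lists, at 3.11 times the mean count listed at that distance. Its reads numbered 17 and 10 untreated, 14 and 8 after 6 h, and 21 and 19 after 48 h (log2 T48 over T0 0.68). Among the 3 pairs picked for the highest ratio was that of 580 kb between the bins at -2.5 and 577.5 kb, which had 10 and 6, 17 and 8, and 21 and 10 (1.05). Among the 5 picked for the lowest was that of 540 kb between the bins at 37.5 and 577.5 kb, which had 17 and 9, 16 and 11, and 5 and 5 (-1.24). Without the 4 bins, 62 pairs from 500 kb were in all 3 lists, and together they counted 512 and 283 reads, then 472 and 287, then 613 and 388. Relative to all pairs of that distance in all 3 lists, the log2 T48 over T0 ratio was 0.40. Within replicates 1 and 2 it was 0.37 and 0.48. Scaled as pair CPM is, but to pairs of that distance, replicates 1 and 2 had 4075 and 1764 at T0. At T48 they had 5257 and 2455. The T0 and T48 libraries therefore overlapped, with T48 replicate 2 below T0 replicate 1. Of the 62, 15 passed edgeR's filter on low counts, which pairs with high T48 counts can pass more easily.

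Of the 813 pairs listed at T0 and not at T48, 280 were of the 4 bins and 533 of other bins. Of the 331 listed at T0 and T6 but not at T48, 180 were of the 4 bins. Of the 263 listed at T48 alone, 3 were. These numbers follow in part from the pick of the 4 bins for their fall and are a description. The strongest pairs listed at T0 and T6 but not at T48 joined the bin at 37.5 kb to those at 587.5 and 597.5 kb, and the bin at -337.5 kb to that at -357.5 kb. The last counted 80 and 40 reads untreated and 56 and 42 after 6 h. The strongest pairs listed at T48 alone joined the bin at -37.5 kb to 592.5 and 812.5 kb and the bin at 47.5 kb to 592.5 kb. Their counts lay between 5 and 10. The share of listed pairs of the locus from 500 kb was 21.2%, 21.9% and 30.5% in the 3 lists, against 11.6%, 11.4% and 15.2% over the genome.

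In windows of 50 kb the fall appeared at 2 of 13 places, and in 1 other it rested on a single library. Each pair was counted once per window. The window from 0 to 50 kb, at 122,500,001 to 122,550,000, had a CPM of 50.3 and 52.8 untreated, 48.1 and 49.8 after 6 h, and 29.1 and 29.5 after 48 h (log2 T48 over T0 -0.81). The window from -350 to -300 kb had 32.3 and 31.2, 29.6 and 29.8, and 16.4 and 16.4 (-0.95), the lowest ratio of the locus. The window from 150 to 200 kb, named after its values were seen, had 28.7 and 30.3, 30.0 and 29.0, and 16.1 and 29.9 (-0.38).

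With the 4 bins left out, the log2 ratios of these windows were -0.06, -0.24 and -0.05, on pair CPM. The window from -50 to 0 kb, just before En1, had the highest ratio of the locus. Its CPM was 20.4 and 18.01 untreated, 20.3 and 19.98 after 6 h, and 24.7 and 23.6 after 48 h (0.33). Its 37 pairs from 500 kb had a ratio of 0.62 and its 5 pairs under 20 kb a ratio of 0.09. The other 9 windows lay between -0.19 and 0.10.

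The median log2 ratio of T48 over T0 over the 13 windows was -0.07, against 0.0036 over 49,387 windows of the genome. Both T48 libraries lay below both T0 libraries in 5 of the 13, against 19.1% of all windows, and above them in 2, against 20.2%. These counts come from the comparison by which the locus was chosen.

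**Figure D5:**
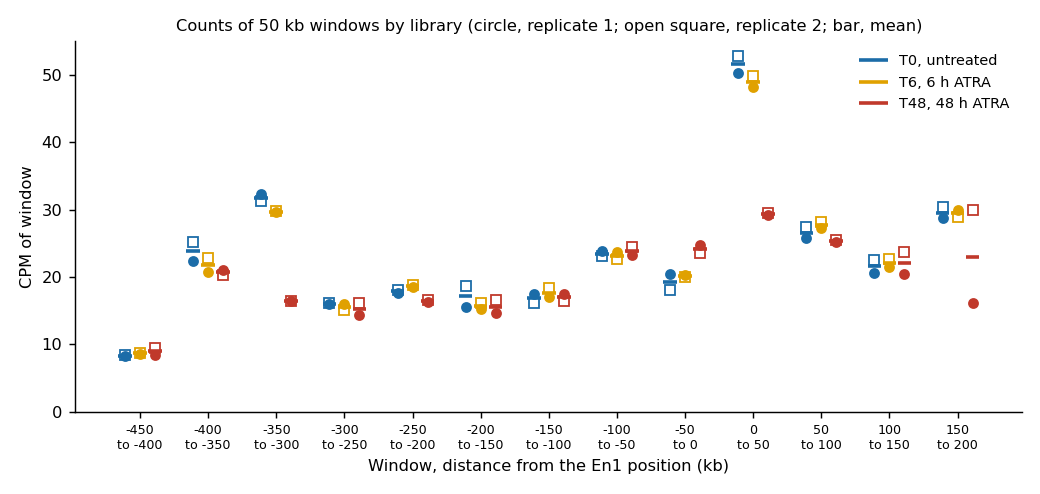
CPM (y axis) of the 13 windows of 50 kb, by distance from the En1 position in kb (x axis) and library, with circles for replicate 1, open squares for replicate 2 and bars for the mean of 2. The T48 values lie far below T0 and T6 in the windows from -350 and from 0 kb, and the T48 replicates lie apart in the window from 150 kb.

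After 6 h no change of the locus passed the test. This comparison was not the basis of the choice, although it shares the T0 libraries. edgeR's quasi-likelihood test called 0 of the 13 windows, against 0.00% of 49,387, at an adjusted p threshold of 0.05. At an unadjusted p under 0.05 it had 0 of 13, against 1.73%, and DESeq2 called 0 of the 12 to which it gave an adjusted p, against 0.0483% of 33,160. The log2 ratios of T6 over T0 lay between -0.13 and 0.06. The window from 0 to 50 kb had -0.07 (SE 0.055, edgeR adjusted p = 1.00), that from -350 kb had -0.10 (SE 0.053, edgeR adjusted p = 1.00) and that from -50 kb had 0.06 (SE 0.078, edgeR adjusted p = 1.00). The last turned to -0.0086 when counts were scaled per distance class. Both T6 libraries lay above both T0 libraries in 2 of the 13 windows, against 12.5% of all, and below them in 2, against 13.1%.

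Single bins and pairs gave the same count at 6 h. edgeR called 0 of 93 bins, against 0.00% of 310,746, with 0 at an unadjusted p under 0.05, against 2.47%. The 4 bins had log2 ratios of T6 over T0 between -0.11 and 0.03 (edgeR adjusted p = 1.00 for each). For single pairs edgeR called 0 of 153, against 0.00% of 496,203, with 3 at an unadjusted p under 0.05, against 3.17%. DESeq2 called 0 of 268 pairs, against 0.000184%. With 2 libraries a group and low counts, 0 calls do not show that the counts were equal.

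Windows elsewhere were picked for a course like that of the window from 0 to 50 kb. Likeness was measured as the Euclidean distance between log2 CPM over the 6 libraries, each window centred on its own mean. The 5 nearest windows began at 54,500,001 of chromosome 1, 36,800,001 and 44,150,001 of chromosome 9, 86,700,001 of chromosome 17 and 114,300,001 of chromosome 8, at distances of 0.139 to 0.173. Their log2 ratios of T48 over T0 lay between -0.93 and -0.65, and those of T6 over T0 between -0.11 and 0.01. The pick used all 6 libraries, T48 among them, so close ratios follow from it.

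The counts are raw and were not corrected here for the coverage of a bin. A lower yield of reads from a 5 kb bin and fewer contacts of that bin therefore cannot be told apart in these values, and the share of either in the fall of the 4 bins was not tested. The values beside it, which do not decide it, are these. Summed over the bins at -337.5, 37.5 and 42.5 kb, pairs fell in all 4 distance classes within both replicate numbers. From 100 kb on these were pairs of the bins at 37.5 and 42.5 kb alone. From 500 kb the T0 and T48 libraries overlapped. These 3 bins moved from the 99.7th percentile of CPM to the 83.8th or below. The other pairs of the locus in all 3 lists kept their summed level, but pairs that left a list are not among them. Over all listed pairs outside the 4 bins the log2 T48 over T0 ratio was -0.27.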

How the data were processed

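Per the file header, the authors deposited 1 table with a raw read count per library for each listed pair of 5 kb bins. The submitters' processing notes name CASAVA 1.8.2, Bowtie2 and the build mm9. The caller of significant pairs, its threshold and any correction of bin coverage are not given in the sources used here. Sample titles gave group and replicate.

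Listed pairs were counted by time point. Counts of the 542,645 pairs in all 3 lists were summed per 50 kb window and per 5 kb bin, a pair within 1 window counted once. edgeR 4.0.16 in R 4.3.3 fitted all 6 libraries together (TMM factors, filterByExpr, quasi-likelihood F test, two-sided, Benjamini-Hochberg adjustment over all features of the genome, threshold 0.05). DESeq2 1.42.0, other window sizes, scaling per distance class, a fit with a replicate block, and fits without each library in turn were the alternatives. The fits were tested on simulated counts. The replicate numbers are shared by the groups, but with 2 numbers they were not taken to pair samples.

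The locus, its windows and the lists were chosen with earlier results of these data known. Named were the windows on either side of the En1 position and those with the lowest and highest T48 over T0, the bins that meet there and the 5 with most listed pairs. Named pairs, of at least 20 kb, were the strongest, lowest and highest and those that entered or left the lists; their 5 kb pairs were added after the values were seen. Like windows were the 5 nearest.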

Additional observations from a re-analysis of the deposited data

How the results depend on the processing

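The count of 0 called windows at 6 h held under all 14 alternatives (lowest edgeR or DESeq2 adjusted p 0.871), and that of 0 called pairs under all 10 (1.00). Single bins, added after the data were seen, gave 0 calls with and without the replicate block (lowest edgeR adjusted p 0.971 with it). With the replicate block the window from 0 to 50 kb had a log2 ratio of -0.07 at 6 h and -0.81 at 48 h, and the median over the 13 windows at 48 h was -0.08. The block changed no call. Replicate differences correlated between time points at r = 0.749 (T0 and T6), 0.660 (T0 and T48) and 0.658 (T6 and T48) over 49,387 windows.

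The locus list fell to 312, 264 and 165 pairs (T0, T6, T48) in a stricter list, with counts at least 1.5 times the lowest listed, and to 562, 504 and 323 pairs with both bins inside. The log2 ratio of the locus sum at 48 h, -0.24, was -0.69 over all listed pairs, -0.066 from 20 kb, -0.28 under 20 kb and -0.0044 without the 4 bins, a split added after the data were seen. Leaving out each library gave -0.28 (without T48 replicate 2) to -0.20 (without T48 replicate 1). At 6 h it was -0.02, 0.032 over all listed pairs, -0.0012 from 20 kb and -0.041 with both bins inside.

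The median over windows at 48 h, -0.07, was -0.15 in windows of 100 kb, and -0.14 (without T48 replicate 2) to -0.038 (without T48 replicate 1). The window from -50 to 0 kb at 6 h, 0.06, turned to -0.0086 when scaled per distance class and ranged from -0.018 (without T0 replicate 2) to 0.16 (without T0 replicate 1). The cause was not tested. Few reads per long pair and 2 libraries a group limit what could be called.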
